A study of Rattus norvegicus with 31 samples.

Results

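The comparison set the livers of rats given any of 6 pesticide exposures against the livers of rats given vehicle alone. The 23 treated libraries came from 6 groups, and the mean of the 6 group means, each with a weight of 1 in 6, was compared with 8 Control libraries, so that all 31 libraries of the series were used. Genes entered when their counts summed to 2 or more over the 31 libraries, which kept 19904 of 26312. The question was which genes responded in common whatever the rats had been given.

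All rats were young adult female Wistar (Crl:WI) animals dosed by oral gavage for 28 days, and every library was total RNA of the liver of 1 rat. The Control rats (n = 8) received the vehicle, an aqueous carboxymethyl-cellulose suspension. The single exposures were 108 mg/kg body weight per day of the neonicotinoid thiacloprid (THI, n = 4), 93 of the azole fungicide imazalil (IMZ, n = 4) and 288 of the neonicotinoid clothianidin (CTD, n = 3). The paper marks the CTD group, alone of the groups used here, as having lost 1 or more rats that were killed when moribund. The binary mixtures held lower doses of both partners, with 54 of THI and 46 of IMZ (THI + IMZ, n = 4), 54 of THI and 134 of CTD (THI + CTD, n = 4), and 46 of IMZ and 135 of CTD (IMZ + CTD, n = 4). No exposure held all 3 compounds, and the vehicle was common to every rat.

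The liver clears foreign compounds in phases. Phase I enzymes, chiefly cytochromes P450, oxidise a compound, phase II transferases attach glutathione, glucuronic acid or sulphate to it, and transporters export the product. The nuclear receptors CAR (Nr1i3) and PXR (Nr1i2) switch on genes of all of these steps, with Cyp2b and Cyp3a genes as their best known targets. The transcription factor NRF2 switches on genes of glutathione supply and antioxidant defence.

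The genes that separated every treated rat from every control were led by such enzymes, and the start regions of 6 of them are shown so that the 2 Cyp2b genes can be compared and the short motifs located. Each sequence runs 5′ to 3′ from 250 bases before to 50 bases after the transcription start in the RefSeq annotation of the rat build GRCr8. Capitals mark matches, on either strand, to the nuclear receptor half-sites AGGTCA or AGTTCA, the antioxidant element core TGACNNNGC, the E-box CACGTG, or the D-box TTATGTAA or TTACGTAA.
Cyp2b1, chr1:90645869-90646168, plus strand: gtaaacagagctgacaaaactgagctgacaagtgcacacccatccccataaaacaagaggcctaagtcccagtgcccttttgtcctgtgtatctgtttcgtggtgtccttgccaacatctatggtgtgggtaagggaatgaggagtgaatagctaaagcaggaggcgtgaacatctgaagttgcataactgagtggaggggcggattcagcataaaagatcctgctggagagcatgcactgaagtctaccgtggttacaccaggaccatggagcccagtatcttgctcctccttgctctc
Cyp2b2, chr1:90722031-90722330, plus strand: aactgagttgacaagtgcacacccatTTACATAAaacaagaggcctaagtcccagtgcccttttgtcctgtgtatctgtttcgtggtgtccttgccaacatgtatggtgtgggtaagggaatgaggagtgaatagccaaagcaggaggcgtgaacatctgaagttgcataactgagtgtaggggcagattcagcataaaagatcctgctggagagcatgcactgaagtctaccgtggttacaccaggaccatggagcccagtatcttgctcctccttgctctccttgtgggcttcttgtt
Mme, chr2:149872247-149872546, plus strand: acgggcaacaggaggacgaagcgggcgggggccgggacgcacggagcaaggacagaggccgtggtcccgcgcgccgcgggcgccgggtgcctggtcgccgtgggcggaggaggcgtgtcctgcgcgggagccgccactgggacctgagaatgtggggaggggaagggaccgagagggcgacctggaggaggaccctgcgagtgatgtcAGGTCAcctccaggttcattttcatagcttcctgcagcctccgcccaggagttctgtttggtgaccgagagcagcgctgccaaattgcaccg
Gstm1, chr2:198343334-198343633, minus strand: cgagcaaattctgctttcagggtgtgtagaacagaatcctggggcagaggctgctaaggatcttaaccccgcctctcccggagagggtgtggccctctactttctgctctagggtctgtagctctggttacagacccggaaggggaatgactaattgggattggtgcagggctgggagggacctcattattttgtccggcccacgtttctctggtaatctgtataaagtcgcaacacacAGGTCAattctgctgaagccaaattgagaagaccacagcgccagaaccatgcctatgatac
Pir, chrX:33851000-33851299, minus strand: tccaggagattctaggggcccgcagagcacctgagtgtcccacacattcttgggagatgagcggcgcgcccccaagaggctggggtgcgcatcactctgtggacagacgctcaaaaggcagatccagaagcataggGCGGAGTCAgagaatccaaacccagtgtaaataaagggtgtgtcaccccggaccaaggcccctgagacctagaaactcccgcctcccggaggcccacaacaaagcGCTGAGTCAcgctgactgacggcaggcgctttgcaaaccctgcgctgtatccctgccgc
Gclm, chr2:213031885-213032184, plus strand: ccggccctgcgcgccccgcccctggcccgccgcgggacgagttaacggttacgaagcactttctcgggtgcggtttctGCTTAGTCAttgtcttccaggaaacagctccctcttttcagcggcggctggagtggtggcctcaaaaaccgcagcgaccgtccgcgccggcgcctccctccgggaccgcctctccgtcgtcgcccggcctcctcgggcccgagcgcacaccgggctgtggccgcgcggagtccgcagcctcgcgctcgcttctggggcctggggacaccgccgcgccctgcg
The Cyp2b1 and Cyp2b2 sequences overlapped when shifted by 17 bases, and 275 of the 283 aligned bases were identical (97.17%). Within its 300 bases Cyp2b2 held a D-box match at bases 27 to 34, counted from the 5′ end, and Cyp2b1 held none of the motifs. Mme and Gstm1 each held a single AGGTCA, Gclm a single TGACNNNGC, and Pir held that core at 2 places. Of the other genes without overlap, App, Gsta3 and the down-regulated Itih3 and Megf11 also had a promoter with that core. Grin2c and Megf11 also had a promoter with AGGTCA, and Gsta3 had AGTTCA and D-box matches too. Abcc3, Cyp3a23/3a1 and Gsr had no promoter matched. Matches to TGACNNNGC and AGGTCA were common among all promoters, and D-box matches were rare. Of 13041 promoters of 11661 matched genes among all those tested, 14% held TGACNNNGC and 13.4% held AGGTCA. Among 431 promoters of 399 matched up-regulated genes the shares were 17.2% and 9.74%, and among 387 promoters of 347 matched down-regulated genes they were 14.5% and 15.8%. The E-box was in 7.66%, 6.72% and 8.41% of the up-regulated, down-regulated and all tested promoters, AGTTCA in 9.98%, 10.3% and 10.6%, and the D-box in 1.86%, 0.517% and 0.636%. These counts describe letters in a fixed window and not binding.

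Control libraries held 32726300 to 101230067 counts (median 60475417) and treated libraries 31820322 to 54791509 (median 40216559), so the controls were on the whole more deeply sequenced. Levels are given as CPM, gene counts scaled by TMM to a common library size. Correlations of log2 CPM between 2 libraries ran from 0.949 to 0.991, so that no pair of libraries was a duplicate. Hepatocyte markers, led by albumin, summed to 202050 to 263680 CPM in controls and 177302 to 270335 CPM in treated livers. Albumin itself did not pass the test (Alb, log2 fold change -0.01 ± 0.09, SE). Control 1 stood apart in fat cell genes that were otherwise near 0. It held 4.67 CPM of Adipoq, the adipocyte hormone adiponectin, and no other control passed 0.22 CPM.

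The exposures together changed the expression of 1143 genes, 5.74% of those tested (edgeR quasi-likelihood test, Benjamini-Hochberg adjusted p below 0.05 over all genes tested). Of these, 572 were up-regulated (2.87%) and 571 down-regulated (2.87%). Changes were mostly small. The median log2 fold change was 0.48 over the up-regulated and -0.42 over the down-regulated genes, against -0.04 over all genes tested. Larger changes than 1 on the log2 scale were found for 171 up-regulated and 156 down-regulated genes. Among genes with an average log2 CPM above 0, where counts were ample, 486 rose and 438 fell, and 95 rose and 30 fell by 1 or more on the log2 scale.

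Very large decreases were nearly all in genes with few counts. Of 97 genes with a log2 fold change below -2, 94 had an average log2 CPM of 0 or less, and in 66 of the 97 no treated library lay below all 8 controls. Adipoq (-4.46 ± 0.76, adjusted p = 0.000422) and Plin1 (-4.26 ± 1.00, adjusted p = 0.0136), both fat cell genes named here after their values were seen, were of this kind. Their highest values, 4.67 and 0.55 CPM, were both in Control 1, and treated libraries reached 0.104 and 0.0852 CPM. Without Control 1 neither passed (Adipoq -0.997, adjusted p = 0.413, and Plin1 -1.84, adjusted p = 0.197, edgeR). Retn, which encodes resistin, was at 0.55 CPM in Control 1 and at 0 in every treated library.

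A separation of all 23 treated livers from all 8 controls was rare. It held for 16 of the genes that passed the pooled test (0.0804% of those tested), 13 higher and 3 lower in treated rats. A typical gene that passed the pooled test had 14 of 23 treated libraries beyond all controls (median), and 76 had 20 or more (52 up-regulated, 24 down-regulated). A stricter test asked that each exposure by itself differ from Control in 1 direction, and took for each gene the largest of its 6 p-values. It was passed by 11 genes (0.0553%), 10 higher and 1 lower, and 9 of the 11 were among the 16 without overlap. The 6 comparisons share the 8 controls and so are not independent. This test needs all 6 comparisons to pass, each with 3 or 4 treated rats, and so asks more of a gene than the pooled test does. Both views together cover 18 genes, described next by role.

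**Figure D1:**
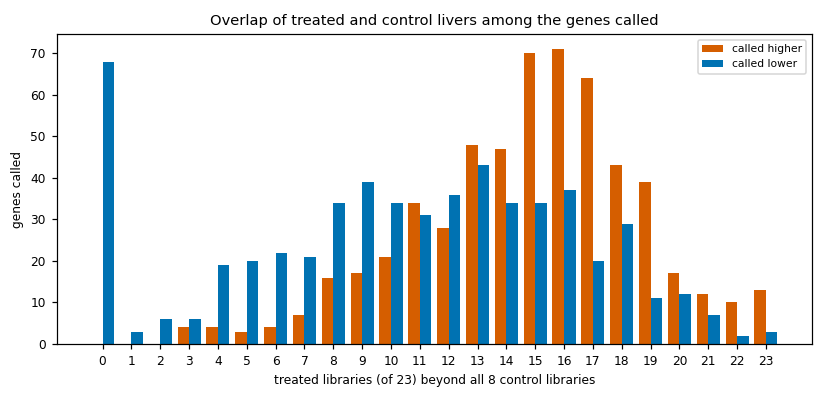
Number of genes that passed the pooled test (y axis) by the number of treated libraries, out of 23, that lay beyond all 8 controls in the direction of the change (x axis), for up-regulated and down-regulated genes. At the far right are the 13 up-regulated and 3 down-regulated genes without overlap, and at 0 are 68 down-regulated genes and no up-regulated gene.

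Among phase I enzymes the phenobarbital-type P450 Cyp2b1 showed the largest change. In controls it ranged from 0.0302 to 0.998 CPM (median 0.379), and in treated livers from 4.62 to 472 CPM (median 116). Every treated liver lay above every control, and the treated livers spread over a wide range among themselves. The pooled log2 fold change was 7.80 ± 0.80 (SE, adjusted p = 1.02e-07), a 223-fold higher level. THI livers held 325, 221, 331 and 180 CPM, whereas IMZ + CTD livers held 55.6, 8.12, 6.23 and 4.62 CPM. The test of a difference among the 6 exposures gave an adjusted p of 0.0667 and so was not passed. The neighbouring Cyp2b2 ranged from 1.51 to 12.1 CPM in controls (median 4.7) and from 63.4 to 525 CPM in treated livers (median 273), again without overlap, with a log2 fold change of 5.27 ± 0.40 (38.6-fold, adjusted p = 1.99e-10). Its lowest levels were likewise in IMZ + CTD livers, at 93.8, 66.7, 82.5 and 63.4 CPM. The study used uniquely mapped reads, so reads that fit both genes may have been lost. The 2 start regions are much alike, and the separate values of the genes are uncertain.

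The PXR target Cyp3a23/3a1 ranged from 0.0609 to 0.247 CPM in controls (median 0.128) and from 0.353 to 3.09 CPM in treated livers (median 1.05). The groups did not overlap, but all levels were low. Its log2 fold change was 3.02 ± 0.28 (adjusted p = 1.89e-08), and it differed among exposures (adjusted p = 0.0472), from 3.80 in IMZ to 2.28 in IMZ + CTD. Another entry of this gene, listed as CYP3A23/3A1, was not among the genes without overlap. It joined them without CTD replicate 3, without the CTD group, or with mixtures only. The levels of that entry are not given here, so the values above describe only the entry listed as Cyp3a23/3a1. Reads that fit close Cyp3a relatives as well may have been lost, and Cyp3a18 rose less (0.84 ± 0.18, adjusted p = 0.00352). Aldh1a1, a retinal and aldehyde dehydrogenase, ran from 46.8 to 172 CPM in controls (median 89.5) and from 172 to 568 CPM in treated livers (median 349). Only IMZ + CTD replicate 1 touched the highest control, Control 4, and 22 of 23 treated livers lay above all controls (log2 fold change 2.01 ± 0.19, adjusted p = 1.89e-08). Ces1c, a carboxylesterase that was named after its values were seen because it passed the test of every exposure, ranged from 624 to 938 CPM in controls (median 756) and from 824.9 to 1399 CPM in treated livers (median 1240). Of these, 22 of 23 lay above all controls (0.64 ± 0.07, adjusted p = 1.07e-06). Ces1c no longer passed in every exposure when any 1 of 11 libraries was left out, namely Control 1, 3, 4 or 7, THI replicate 3 or 4, IMZ replicate 3 or 4, or IMZ + CTD replicate 2, 3 or 4. Cyp2b1 no longer passed that test without IMZ + CTD replicate 1, nor did Cyp3a23/3a1 without CTD replicate 1 or CTD replicate 2.

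Glutathione transferases of phase II and an exporter of conjugates also separated the groups. Gsta3 ranged from 35 to 126 CPM in controls (median 86.9) and from 136 to 312 CPM in treated livers (median 252). Its log2 fold change of 1.44 ± 0.16 (adjusted p = 3.02e-07) varied from 1.30 to 1.62 over the 6 exposures, and it was among the 4 genes with the smallest F among exposures, with Eln, Lppr4 and Wdr72, of those with an average log2 CPM above 0 and a change of 1 or more. Gstm1 ranged from 238 to 362 CPM in controls (median 285) and from 453 to 927 CPM in treated livers (median 630), with a log2 fold change of 1.14 ± 0.10 (adjusted p = 1.25e-08). Both genes separated all treated from all control livers. Both belong to families of similar members, so some of their reads may not have mapped uniquely. Abcc3, which exports glucuronides into the blood, ranged from 6.97 to 25.2 CPM in controls (median 9.38) and from 28.2 to 103 CPM in treated livers (median 61.6). Control 4 was far above the other controls and still below the lowest treated liver. The log2 fold change was 2.42 ± 0.18 (adjusted p = 1.99e-10), with 2.82 in THI + CTD and 1.65 in IMZ + CTD as the extremes, and the exposures differed (adjusted p = 0.0389).

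NRF2 targets and related genes were the third set without overlap. Gclm, the regulatory subunit of glutamate-cysteine ligase, ranged from 57.3 to 70.1 CPM in controls (median 62.1) and from 72.7 to 145 CPM in treated livers (median 94). The change was modest (0.62 ± 0.07, adjusted p = 9.5e-07), and the lowest treated liver lay only a little above the highest control. Its size differed among exposures (adjusted p = 0.00117), with 1.04 in CTD and 0.28 in IMZ + CTD. Gsr, glutathione reductase, ranged from 86.5 to 105 CPM in controls (median 97.9) and from 111 to 178 CPM in treated livers (median 135), with a log2 fold change of 0.48 ± 0.06 (adjusted p = 6.6e-06). Pirin (Pir), an iron-binding nuclear protein, ranged from 1.5 to 3.28 CPM in controls (median 2.36) and from 3.29 to 9.91 CPM in treated livers (median 5.95). The treated minimum and the control maximum of Pir were almost equal, and the log2 fold change was 1.30 ± 0.13 (adjusted p = 5.58e-08).

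**Figure D2:**
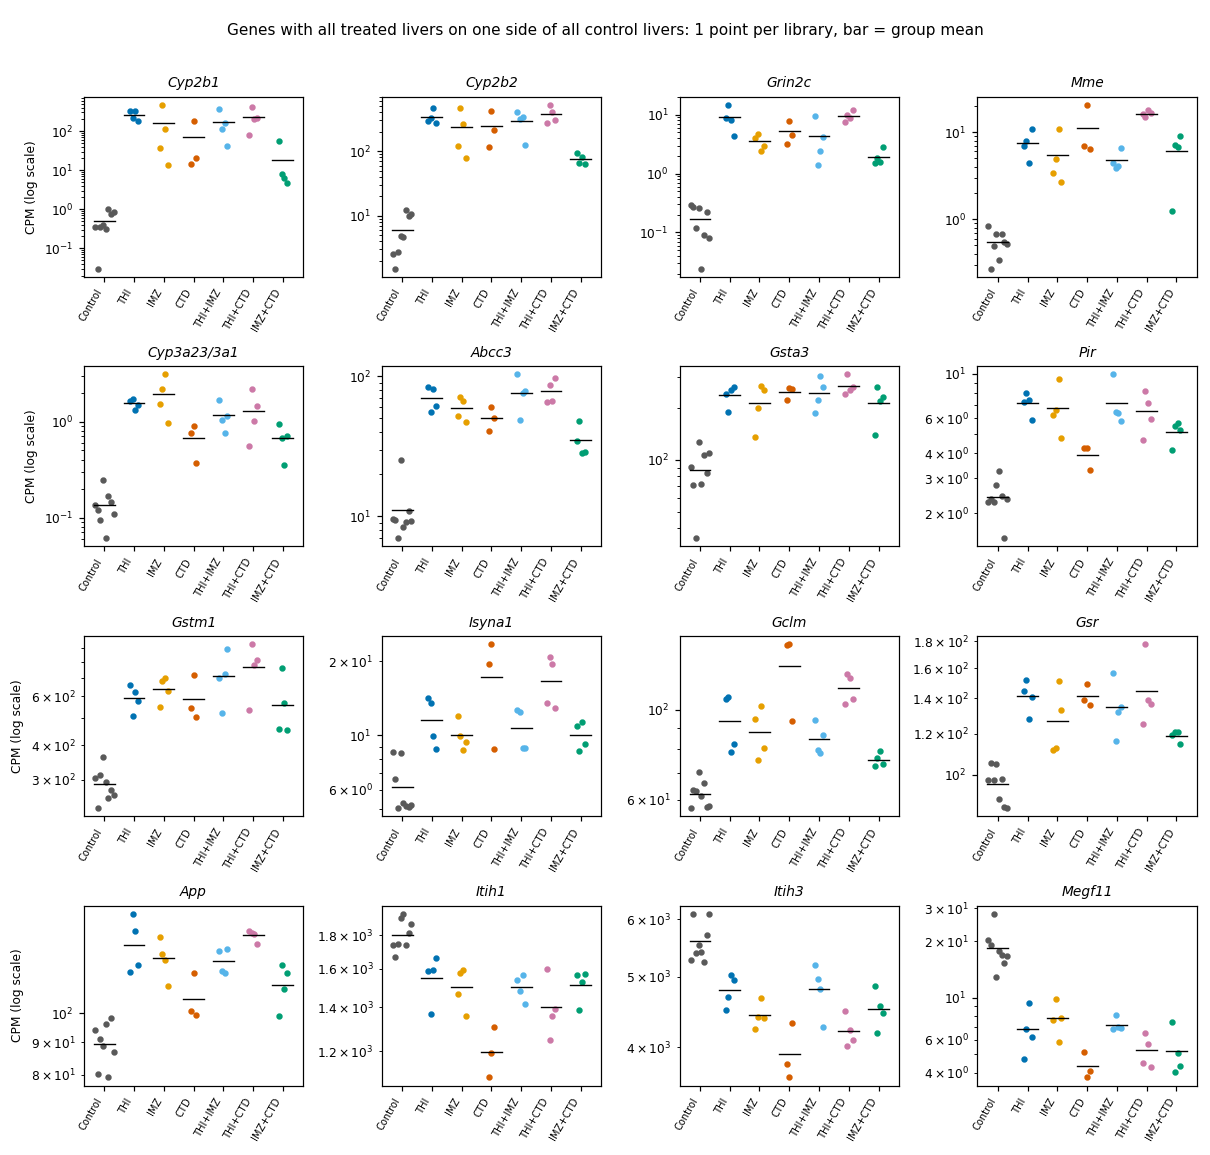
Level of each of the 16 genes without overlap in every library (CPM after TMM scaling, log y axis) of Control and the 6 exposures (x axis), with bars at group means. Cyp2b1, Cyp2b2 and Grin2c have wide gaps between the groups, whereas Pir, Isyna1, Itih1, Itih3 and App are separated by gaps close to 0.

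Outside drug metabolism, Grin2c and Mme showed some of the largest increases. Grin2c, a subunit of the NMDA glutamate receptor, ranged from 0.0244 to 0.289 CPM in controls (median 0.168) and from 1.42 to 14.7 CPM in treated livers (median 4.31). The log2 fold change was 4.81 ± 0.37 (28.1-fold, adjusted p = 1.99e-10), from 5.77 in THI + CTD to 3.48 in IMZ + CTD (adjusted p among exposures = 0.00513). Mme, the membrane peptidase neprilysin, ranged from 0.271 to 0.83 CPM in controls (median 0.533) and from 1.23 to 20.6 CPM in treated livers (median 6.89), with a log2 fold change of 3.78 ± 0.32 (13.7-fold, adjusted p = 2.23e-09). The 4 THI + CTD livers were high and alike at 16, 14.9, 17.9 and 16.5 CPM, while the lowest treated value was that of IMZ + CTD replicate 1 and the other IMZ + CTD livers held 7.21, 6.79 and 8.99 CPM. The exposures differed for Mme too (adjusted p = 0.0181).

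Smaller increases without overlap were those of Isyna1 and App. Isyna1, the enzyme that makes inositol phosphate from glucose 6-phosphate, ranged from 5.08 to 8.53 CPM in controls (median 5.28) and from 8.66 to 23.4 CPM in treated livers (median 11.3), with a log2 fold change of 0.99 ± 0.14 (adjusted p = 3.83e-05) that differed among exposures (adjusted p = 0.0426). The treated minimum of Isyna1 lay close to its control maximum. App, the amyloid precursor protein, ranged from 79.2 to 98.2 CPM in controls (median 89.8) and from 98.9 to 143 CPM in treated livers (median 119), at 0.42 ± 0.05 (adjusted p = 1.4e-06). Its gap between the groups was only 0.01 on the log2 scale.

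Only 3 genes were lower in every treated liver than in every control. Megf11, which encodes a membrane protein with epidermal growth factor-like repeats, ranged from 12.9 to 28 CPM in controls (median 17.3) and from 3.77 to 9.86 CPM in treated livers (median 6.19). It had the smallest adjusted p of all genes tested (5.3e-11), fell in every exposure, from -1.24 in IMZ to -2.08 in CTD (pooled -1.62 ± 0.11), and was the sole down-regulated gene that passed the test of every exposure. Itih1 and Itih3 encode heavy chains of the plasma inter-alpha-trypsin inhibitor and are abundant. Itih1 ranged from 1668 to 1942 CPM in controls (median 1781) and from 1094 to 1661 CPM in treated livers (median 1483), at -0.33 ± 0.05 (adjusted p = 9.16e-05). Itih3 ranged from 5238 to 6102 CPM in controls (median 5469) and from 3632 to 5185 CPM in treated livers (median 4453), at -0.34 ± 0.05 (adjusted p = 4.36e-05). For both the gap was under 0.02 on the log2 scale.

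The libraries nearest to the opposite group recurred. Of the 18 genes, IMZ + CTD replicate 1 was the treated library closest to the controls for 5, and Control 4 the control closest to the treated livers for 7. Leaving out IMZ + CTD replicate 1, singled out here for that nearness, raised the number of genes without overlap from 16 to 23. Leaving out Control 2 and Control 4 together, chosen after seeing the data, raised it to 26. With fewer libraries separation is easier by construction, so neither rise is a test of the libraries left out.

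**Figure D3:**
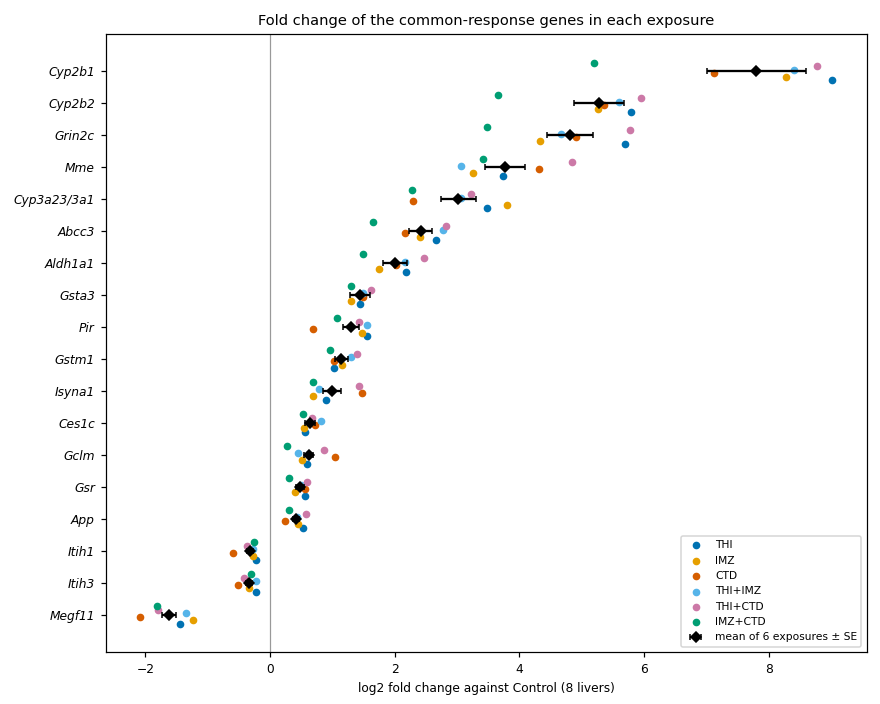
Log2 fold change against Control (x axis) of the 18 genes that separated all treated from all control livers or passed the test of every exposure (y axis). Coloured points are the 6 exposures, and black diamonds with bars are their mean with its SE. For Cyp2b1, Cyp2b2, Abcc3 and Grin2c the smallest of the 6 values is that of IMZ + CTD, and for Gsta3 the 6 values lie between 1.30 and 1.62.

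Of the genes that passed the pooled test, 335 (29.3%) also differed among the 6 exposures, a test that does not use the controls and that 1159 genes passed (5.82%). They were 207 up-regulated and 128 down-regulated genes. CTD-containing exposures differed from CTD-free ones for 914 genes (4.59%), of which 485 were higher and 429 lower with CTD. Of the genes of the pooled test, 317 were among them, 305 in the same direction as the pooled change. Mixtures and single compounds differed for 118 genes (0.593%), 68 higher and 50 lower in mixtures, and 25 of these passed the pooled test. Over the up-regulated genes the median log2 fold change was 0.24 in THI, 0.40 in IMZ, 0.70 in CTD, 0.44 in THI + IMZ, 0.65 in THI + CTD and 0.43 in IMZ + CTD. Over the down-regulated genes it was -0.32, -0.29, -0.67, -0.36, -0.53 and -0.35 in the same order. Thus CTD and THI + CTD showed the largest typical changes, over genes chosen with these same groups in the pool. Without CTD in the contrast 683 genes passed, and 644 of them were among the 1143.

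Cell division genes rose in the pool but not in every exposure. Of 28 mitosis genes tested, 26 rose and none fell, against 2.87% of all genes tested in each direction. Their median log2 fold change was 1.72. The medians were 0.01 in THI, 1.31 in IMZ, 2.94 in CTD, 1.81 in THI + IMZ, 1.99 in THI + CTD and 2.25 in IMZ + CTD. Among exposures 22 of the 28 differed, against 5.82% of all genes tested. Their summed level was 17.4 to 40.4 CPM in controls and 15.8 to 40.5 CPM in THI livers, so that these groups overlapped fully. It was 39.4 to 93.8 CPM in IMZ, 98 to 345 CPM in CTD, 30.8 to 184 CPM in THI + IMZ, 44.3 to 114 CPM in THI + CTD and 61.9 to 164 CPM in IMZ + CTD livers. No mitosis gene separated all treated livers from all controls.

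Cdk1, the kinase that drives entry into mitosis, ranged from 0.238 to 0.801 CPM in controls. THI livers held 0.674, 0.976, 0.413 and 1.05 CPM, within or just above that range, and CTD livers held 13, 5.09 and 2.77 CPM. Its pooled log2 fold change was 2.18 ± 0.31 (adjusted p = 4.61e-05), with 0.30 in THI and 3.44 in CTD (adjusted p among exposures = 0.0031). Kif23 (2.06 ± 0.32), Kif11 (1.73 ± 0.29), both motor proteins of the spindle, and Top2a (1.89 ± 0.33), the topoisomerase of dividing cells, also rose. Of 26 DNA replication genes 9 rose and none fell (median 0.33), against 2.87% of all genes tested in each direction. Among the 9 were the ribonucleotide reductase subunit Rrm2 (2.13 ± 0.42) and the helicase subunit Mcm5 (1.32 ± 0.30). The medians of the 26 ran from -0.22 in THI to 0.90 in CTD, and 13 differed among exposures, against 5.82% of all genes tested. CTD-containing exposures were higher than CTD-free ones for 27 of 28 mitosis and 17 of 26 replication genes. Of all genes tested 4.59% differed between these exposures in either direction.

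Among genes of the pooled test with an average log2 CPM above 0 and a change of 1 or more, the largest F among exposures was that of Ccne1, Ckap2, Zfp367 and Ky. Ccne1, the cyclin that leads cells into DNA synthesis, was at -0.86 in THI and 2.37 in CTD (pooled 1.08 ± 0.24). Ckap2, a spindle protein, was at -0.73 in THI and 3.58 in CTD (pooled 1.93 ± 0.36), and Zfp367, a zinc finger gene, at 0.07 and 2.61 (pooled 1.29 ± 0.23). Ky, named after a peptidase needed in muscle, ranged from 11.2 to 32.5 CPM in controls. CTD livers held 1.51, 2.2 and 1.48 CPM, IMZ livers 7.33, 11, 10.8 and 7.26 CPM and IMZ + CTD livers 11.5, 11, 5.47 and 8.64 CPM. The 22 treated livers other than IMZ + CTD replicate 1 lay below every control, and the CTD livers were the lowest as a group. Its pooled log2 fold change was -1.86 ± 0.18 (adjusted p = 1.89e-08).

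**Figure D4:**
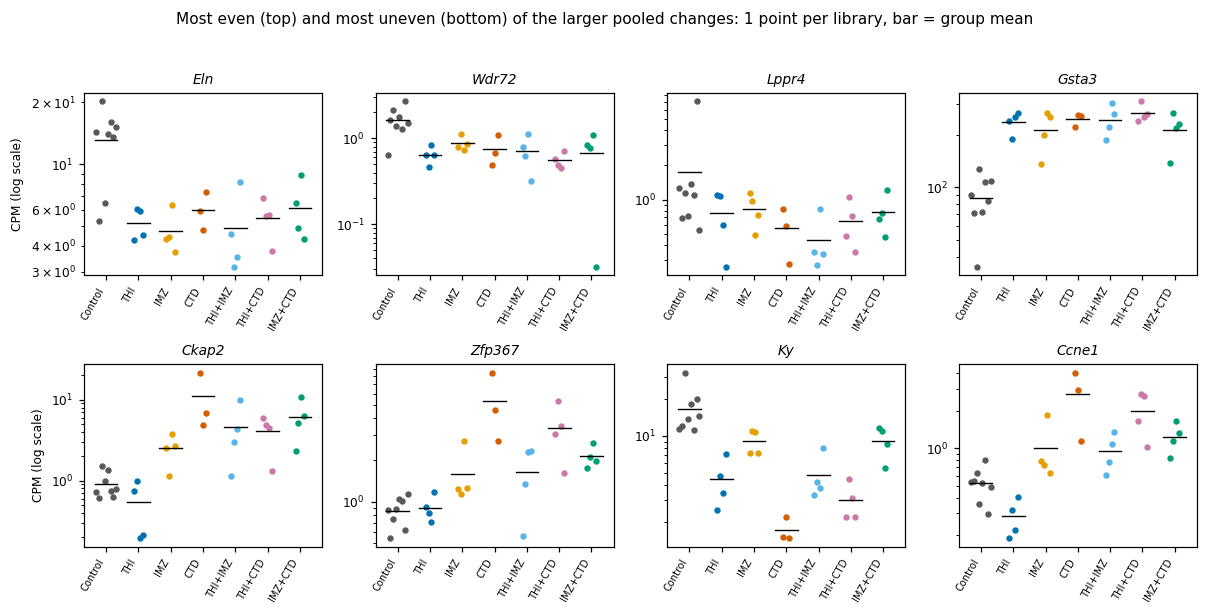
CPM on a log axis (y axis) in every library of Control and the 6 exposures (x axis), with bars at group means, for the 4 genes with the smallest (top) and the 4 with the largest (bottom) F among exposures, of those with an average log2 CPM above 0 and a pooled change of 1 or more. The exposures lie near 1 level for Eln and Gsta3, whereas Ccne1 and Ckap2 lie above all controls in every CTD liver and in no THI liver.

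The counts that follow for each gene list stand beside 5.74% of all genes tested, or 2.87% in each direction. The lists, mitosis and replication included, were chosen with earlier results of these data known. A high share is therefore not independent support. In phase I, 7 of 14 genes tested rose and none fell (median 0.76), and 10 of 19 phase II genes rose and none fell (median 0.35). The phase I genes were Cyp2b1, Cyp2b2, Cyp3a23/3a1, Cyp3a18, Aldh1a1, Aldh1a7 (1.26 ± 0.29) and the epoxide hydrolase Ephx1 (1.19 ± 0.18). Aldh1a7 was uneven, at 2.53 in CTD and -0.06 in IMZ. In phase II, after Gsta3 and Gstm1, the smallest p-values were those of the glucuronosyltransferase Ugt2b17 (1.23 ± 0.18) and Sult1b1 (0.33 ± 0.06). Of 15 transporters 3 rose and none fell (median 0.14). They were Abcc3, Abcc4 (listed as ABCC4, 0.53 ± 0.13) and Slco1a1 (listed as SLCO1A1, 0.28 ± 0.06). Of 16 NRF2 targets 8 rose and none fell (median 0.41). Beside Gclm and Gsr these included Me1, which supplies NADPH (1.40 ± 0.23), and Akr7a3, an aflatoxin aldehyde reductase (0.75 ± 0.13), and 15 of the 16 were above 0.

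Of 13 xenosensor genes 2 rose and 1 fell (23.1%, median -0.06). CAR (Nr1i3) ranged from 2.85 to 16.1 CPM in controls and from 8.46 to 26.2 CPM in treated livers, with overlap, at 0.91 ± 0.19 (adjusted p = 0.00352), and the corepressor Nr0b2 rose by 0.84 ± 0.22. Arnt, the partner of the aryl hydrocarbon receptor (AHR), fell by 0.25 ± 0.07 on the log2 scale. Of 6 AHR targets 1 rose, namely Cyp1a1 (2.09 ± 0.50, adjusted p = 0.00951, median of the list 0.25). Of 23 targets of the fatty acid sensor PPARA 2 rose and 1 fell (median 0.02). Vnn1, the pantetheinase vanin-1, rose most (1.82 ± 0.23) and lay above all controls in 22 of 23 treated livers, and Acaa1a of peroxisomal oxidation fell by 0.26 ± 0.05.

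**Figure D5:**
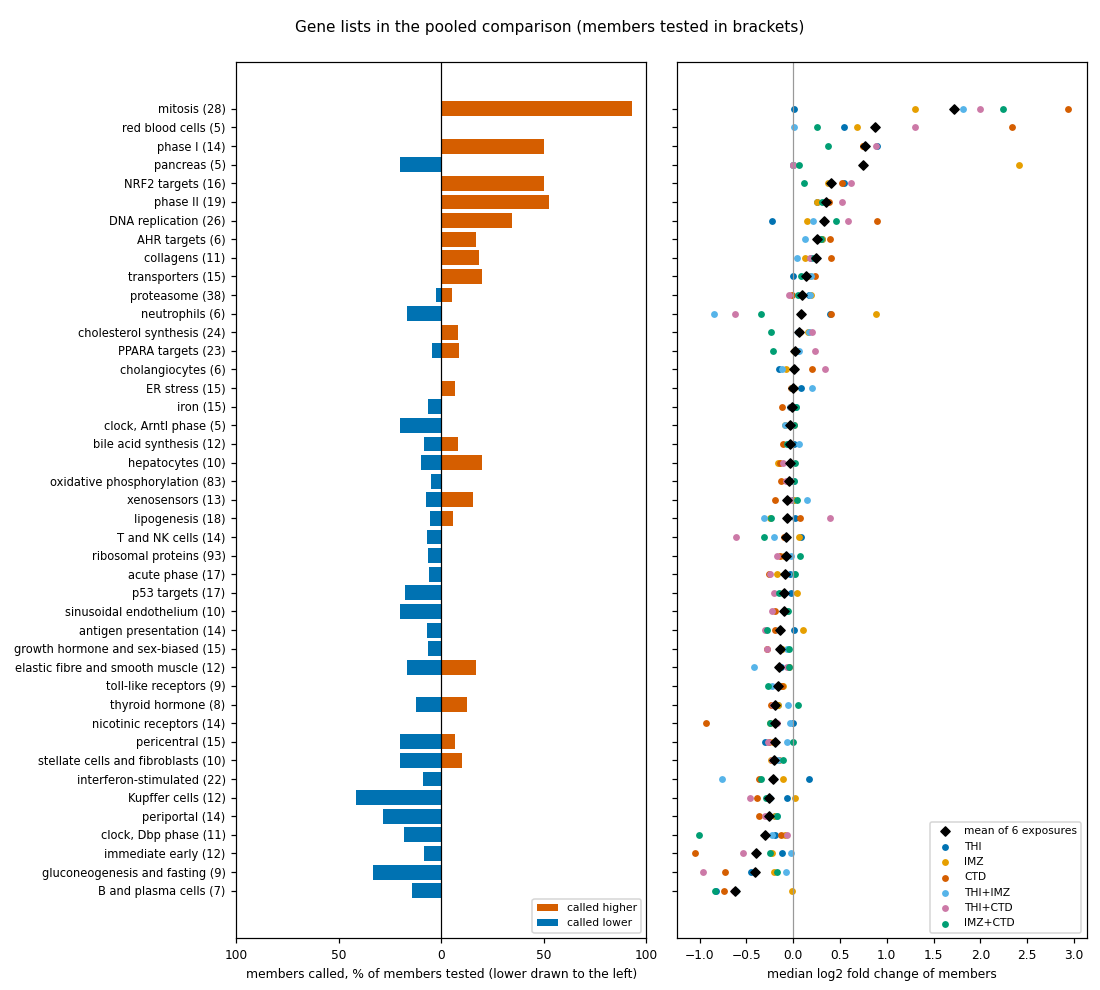
Gene lists (y axis, members tested in brackets) with the share of members up-regulated and down-regulated in percent (left) and the median log2 fold change of the members in the pool and in each exposure (right). Mitosis, at 1.72 with 26 of 28 members up-regulated, lies furthest right, and Kupffer cell markers, at -0.25, have 5 of 12 members down-regulated.

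Cyp7a1, the rate-limiting enzyme of bile acid synthesis, ranged from 81.9 to 385 CPM in controls (median 281) and from 16 to 469 CPM in treated livers (median 51.7). The groups overlapped, with IMZ livers at 51.7, 469, 143 and 171 CPM and THI + IMZ livers at 42.2, 19.3, 31.5 and 32.9 CPM. The pooled log2 fold change was -1.58 ± 0.30 (adjusted p = 0.00126) and differed among exposures (adjusted p = 0.02). Within bile acid synthesis Akr1d1 rose (0.32 ± 0.08) and the other 10 of 12 genes did not pass (median -0.03). Of 24 cholesterol synthesis genes 2 rose, such as Sc5d (0.30 ± 0.07), and the median was 0.06. Of 18 lipogenesis genes Me1 rose and Dgat2 fell (-0.30 ± 0.09, not passed under 20 of 48 alternative settings), with a median of -0.07.

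Of 9 gluconeogenesis and fasting genes 3 fell and none rose. The median was -0.41 in the pool and ran from -0.08 in THI + IMZ to -0.96 in THI + CTD, and their summed level was 4551 to 5827 CPM in IMZ livers, inside the control range of 3237 to 8248 CPM. Igfbp1, a binding protein of insulin-like growth factors, ranged from 64.2 to 691 CPM in controls and from 5.09 to 337 CPM in treated livers, overlapping widely (-1.74 ± 0.34, adjusted p = 0.00173). Irs2, an insulin signalling adaptor, fell by 0.85 ± 0.20 and Tat, which degrades tyrosine, by 0.49 ± 0.14. Among 11 clock genes of the Dbp phase, Per1 (-0.97 ± 0.16) and Dbp (-0.42 ± 0.11) fell, and the median was -0.30 overall and -1.003 in IMZ + CTD. Of 5 clock genes of the Arntl phase Nfil3 fell (-0.29 ± 0.07, median of the list -0.03). The hour at which each rat was killed was not given in the sources used here, and its part in these values was not tested.

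Genes of the periportal zone of the lobule were lower in 4 of 14 cases and higher in none (median -0.26), among them Ass1 of the urea cycle (-0.40 ± 0.08) and Hal, which breaks down histidine (-0.50 ± 0.09). Pericentral genes moved both ways, with 3 of 15 down-regulated, such as the glutamine synthetase Glul (-0.38 ± 0.09) and Oat (-0.69 ± 0.14), and Rhbg up-regulated (0.77 ± 0.22, not passed under 14 of 48 alternative settings), at a median of -0.20. Of 12 elastic fibre and smooth muscle genes 2 rose and 2 fell (median -0.16). Eln, elastin, ranged from 5.31 to 20.3 CPM in controls (median 14.2) and from 3.17 to 8.85 CPM in treated livers (median 4.88). Control 2 and Control 4, at 5.31 and 6.44 CPM, lay inside the treated range and the other 6 controls lay above it (-1.29 ± 0.17, adjusted p = 1.09e-05). Myh11, smooth muscle myosin, fell by 0.71 ± 0.14, while the lysyl oxidase Lox (0.81 ± 0.25) and Fbln5 (0.53 ± 0.15) rose, calls that were lost under 29 and 12 of 48 alternative settings. Of 11 collagens 2 rose, Col4a1 (0.31 ± 0.08) and Col4a2 (listed as COL4A2, 0.27 ± 0.08), with a median of 0.24, and COL4A2 did not pass under 27 of 48 alternative settings.

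Of 17 p53 targets 3 fell (median -0.10), of 12 immediate early genes 1 fell (median -0.40), of 15 ER stress genes 1 rose (median 0.0011), of 14 antigen presentation genes 1 fell (median -0.14), and of 22 interferon-stimulated genes 2 fell (median -0.22). However, 10 of the 22 interferon-stimulated genes differed among exposures, against 5.82% of all genes tested. Their median was -0.76 in THI + IMZ, where their summed level was 610 to 625 CPM against 661 to 933 CPM in controls. The immediate early genes had a median of -1.05 in CTD, where they summed to 161 to 241 CPM against 393 to 671 CPM in controls, so that neither of these exposures overlapped the controls in its sum. None of 9 toll-like receptors passed (median -0.17). Of 17 acute phase genes Itih3 alone fell (median -0.08). Of 15 growth hormone and sex-biased genes 1 fell (median -0.15), and of 8 thyroid hormone genes Ttr rose and the transporter Slc16a10 fell (-0.41 ± 0.06, median of the list -0.20). Of 15 iron genes Tfr2 fell (median -0.01). None of 14 nicotinic acetylcholine receptor genes, the insect counterparts of which neonicotinoids bind, passed the test, and 10 of them had no count in most libraries.

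Of 93 ribosomal protein genes 6 fell and none rose (median -0.08), of 83 oxidative phosphorylation genes 4 fell and none rose (median -0.05), and of 38 proteasome genes 2 rose and 1 fell (median 0.10). Of the proteasome genes 33 were above 0, and 12 differed between CTD-containing and CTD-free exposures, against 4.59% of all genes tested. Their medians were 0.17, 0.20 and 0.18 in THI, IMZ and THI + IMZ, and -0.01, -0.04 and 0.05 in CTD, THI + CTD and IMZ + CTD. Rps16 showed what such a pooled decrease can rest on. Controls held 54.2 to 94.4 CPM and CTD livers 20, 7.16 and 6.86 CPM, while the other 20 treated livers held 50.6 to 92.5 CPM. Its pooled log2 fold change was -0.47 ± 0.12 (adjusted p = 0.0172), with -2.64 in CTD and 0.06 in THI + IMZ, and it was -0.03 with CTD left out of the contrast (adjusted p = 0.949, edgeR).

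Among the most abundant genes that passed, plasma proteins changed by small amounts. Serpina3c, a serine protease inhibitor, ranged from 4698 to 6151 CPM in controls and from 5828 to 11022 CPM in treated livers and rose by 0.55 ± 0.09 (adjusted p = 0.000421). Ttr, the thyroid hormone carrier transthyretin, rose by 0.19 ± 0.06, whereas Ambp (-0.16 ± 0.04), the bikunin precursor, and prothrombin, F2 (-0.17 ± 0.05), fell along with Itih3. Each of Ttr, Ambp and F2 overlapped between treated and control livers. The call of Ttr was lost under 30 of 48 alternative settings (largest adjusted p = 0.305, edgeR), that of F2 under 7 and that of Ambp under 4.

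Of the genes that the study picked for qRT-PCR on these same samples, all 10 passed the pooled test, which is not independent evidence of their direction. The paper reports that qRT-PCR and RNA-Seq matched well in direction for each of them but Ky. The decrease of Ky described above therefore rests on the RNA-Seq counts alone. The paper also reports that RNA-Seq underestimated some of the increases, that of Mme among them. Lppr4 (-1.40 ± 0.33), a membrane protein of the lipid phosphatase family, and Wdr72 (-1.23 ± 0.24), both just above an average log2 CPM of 0, were named for their small F among the exposures. In Lppr4 a single library, Control 7 at 7.15 CPM, lay far above the other controls at 0.543 to 1.35 CPM, and without it Lppr4 did not pass (-0.57, adjusted p = 0.201, edgeR).

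Markers of other liver cells were counted beside these results. In bulk tissue, fewer cells of a type and less RNA per cell cannot be told apart. Of 12 Kupffer cell markers 5 fell and none rose (median -0.25), namely C1qa, C1qb, C1qc, Csf1r and Cd68. C1qc of the complement system ranged from 65.6 to 102 CPM in controls and from 48.5 to 89.8 CPM in treated livers (-0.29 ± 0.08, adjusted p = 0.0174), and it did not pass under 6 of 48 alternative settings. Cd68 did not pass under 23 of them, C1qb under 11 and Csf1r under 10. Clec4f (-0.25 ± 0.10) and Cd163 (-0.26 ± 0.09) did not pass. The summed Kupffer level was 580 to 945 CPM in controls, 564 to 902 CPM in THI, 703 to 808 CPM in IMZ, 460 to 710 CPM in CTD, 499 to 675 CPM in THI + IMZ, 483 to 640 CPM in THI + CTD and 438 to 759 CPM in IMZ + CTD, so every exposure overlapped the controls.

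Of 10 stellate cell and fibroblast markers 1 rose and 2 fell (median -0.20), of 10 sinusoidal endothelial markers 2 fell (median -0.10), of 14 T and NK cell markers Cd4 fell (median -0.08) and of 6 cholangiocyte markers none passed (median 0.01). Of 10 hepatocyte markers 2 rose and 1 fell (median -0.04). Of 7 B and plasma cell markers the immunoglobulin J chain (listed as IGJ) fell (-1.07 ± 0.26, median of the list -0.62), at 0.545 to 1.29 CPM in controls and 0.172 to 1.32 CPM in treated livers. Of 6 neutrophil markers Elane fell (-2.99 ± 0.77), at no more than 0.0936 CPM in controls and 0 in 21 of 23 treated livers. The other treated livers, IMZ + CTD replicates 3 and 4, held 0.0588 and 0.128 CPM, the latter above every control. Elane no longer passed when Control 1, 3, 7 or 8 was left out. None of 5 red blood cell genes passed (median 0.87). Their summed level was 27.3 to 67.6 CPM in controls and 156 to 187 CPM in CTD livers, with 216 CPM as the highest value in THI + CTD, so that blood transcripts were high in the CTD livers, where the mitosis genes were high too. The sums were 19.2 to 118 CPM in THI, 46 to 81.8 in IMZ, 31.2 to 44 in THI + IMZ and 21.3 to 70 in IMZ + CTD. Mitosis genes were also high in livers of the last 2. The part of blood transcripts in the mitosis result was not tested.

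Cpa1, carboxypeptidase A1, is known as a pancreatic enzyme and was on the pancreas list. It ranged from 189 to 464 CPM in controls (median 256) and from 11 to 210 CPM in treated livers (median 97.8), with 21 of 23 treated livers below all controls (-1.53 ± 0.28, adjusted p = 0.000861). The other 4 pancreas markers did not pass, and 3 of the 5, among them the trypsinogen Prss1 and the lipase Pnlip, had no count in most libraries, so that no median of that list is given.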

How the data were processed

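Liver RNA of 31 rats was sequenced by the study on a NovaSeq after stranded total RNA library preparation. Per the study's methods and the submitters' processing notes, reads were trimmed, checked with FastQC (0.11.5), aligned with STAR (2.5.2b) to the rat build Rnor_5.0 and normalised with DESeq2 (1.15.1). The annotation release and the strand setting of counting are not given in the sources used here, so overlapping or antisense genes may share reads. The deposited counts per gene (26312 genes) were used for every result. The deposited normalised signal (19904 genes) equals the counts divided by a size factor for each library (largest relative deviation 4.97837e-15) and was used for that check alone.

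Genes with a count sum of 2 or more were scaled by TMM and fitted with edgeR (4.0.16, R 4.3.3) in 1 quasi-likelihood model of 7 group means without further covariates. Contrasts were the mean of the 6 exposures against Control, each exposure against Control, an F test of equality among exposures (5 degrees of freedom), CTD-containing against CTD-free exposures, and mixtures against single compounds. The Benjamini-Hochberg adjustment covered the 19904 genes, with a threshold of 0.05. A gene did not overlap if all treated libraries lay on 1 side of all controls in log2 CPM (prior count 2). Every SE is the log2 fold change over the square root of F. No set test was run.

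Named genes were the strongest and weakest without overlap, the 5 most abundant that passed, the 4 most even and 4 most uneven, up to 4 members of each list by p, and the study's qRT-PCR genes. Exceptions are named as such, and a few genes that the rule picks are not reported here. The members and lists were chosen with earlier results of these data known. Each list symbol was matched as spelled and otherwise in capitals, since the table lists some rat genes so. The lists of ribosomal, oxidative phosphorylation and proteasome genes were taken by symbol pattern. The tests were checked on simulated data with known changes. Alternatives were other scalings, filters and tests (DESeq2 1.42.0, limma 3.58.1), counts thinned to the smallest library, a replicate block, 2 means only (all treated libraries as 1 group), single exposures or kinds of exposure left out, and each library left out. Promoters were read from a RefSeq table (GRCr8) with Python (3.11.15), and figures drawn with matplotlib (3.10.9).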

Additional observations from a re-analysis of the deposited data

Results flagged for a closer look

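Of 144 groups of 4 or 8 libraries in 24 genes, 9 held a library far from the others of its group, given here as its gap to the nearest library over the range of the group. Chance alone flags about 1 in 20. In controls these were Abcc3 in Control 4 (0.647, 25.2 CPM against 6.97 to 11 in the others), Cyp2b1 in Control 2 (0.586, 0.0302 CPM against 0.305 to 0.998), Gsta3 in Control 3 (0.55, 35 CPM against 71 to 126), Pir in Control 7 (0.536, 1.5 CPM against 2.29 to 3.28) and Lppr4 in Control 7 (0.654, 7.15 CPM against 0.543 to 1.35). In treated livers they were Aldh1a1 in THI replicate 2 (0.893, 287 CPM against 436 to 458), Megf11 in THI + IMZ replicate 2 (0.878, 8.06 CPM against 6.86 to 7), Mme in IMZ + CTD replicate 1 (0.857, 1.23 CPM against 6.79 to 8.99) and Wdr72 in IMZ + CTD replicate 4 (0.876, 0.0321 CPM against 0.766 to 1.09).

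Of the same 24 genes, 8 differed in size among the 6 exposures by the edgeR F test, against 5.82% of all genes tested. The 24 are named genes, chosen from these same data, and include Lppr4 and Wdr72, named for a small F. Their share is therefore not that of an unselected set. The adjusted p-values were 0.000387 for Ky, 0.00117 for Gclm, 0.00513 for Grin2c, 0.0181 for Mme, 0.01995 for Cyp7a1, 0.0389 for Abcc3, 0.0426 for Isyna1 and 0.0472 for Cyp3a23/3a1. In CTD Ky was at -3.26 and Gclm at 1.04, and in IMZ + CTD they were at -0.86 and 0.28, each on the log2 scale.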

How the results depend on the processing

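Of 5463 values of 114 named genes over the alternatives, 4882 kept their direction and their side of the threshold, 580 kept their direction and lost the threshold, and 1 reversed (Rps16, 0.055 with mixtures only). With 1143 genes in the pooled test, other scalings, filters and tests gave 1148 (DESeq2 size factors), 1471 (DESeq2 Wald test), 1240 (newer quasi-likelihood method), 1201 (stricter filter), 1126 (no filter), 1133 (limma voom) and 1056 (thinned counts). Fewer passed with 2 means only (618, 369 up, 249 down, 601 of them shared) and with CTD left out (683, 367 up, 316 down), and fewer fell with mixtures only (374). Cyp7a1 and Igfbp1 did not pass with 2 means only. The number without overlap was 27 without IMZ + CTD, 35 with single compounds only, 39 with mixtures only and 26 without Control 2 and Control 4. Smaller sets of libraries are easier to separate by construction. DESeq2's Wald test gave 1431 genes for CTD-containing exposures and 297 for mixtures.

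Leaving out 1 library at a time gave 800 to 1287 genes, 424 to 615 up and 376 to 672 down, the lowest without Control 7 and the highest without CTD replicate 3. It gave 15 to 23 without overlap, 10 to 12 past every exposure, 669 to 1143 for CTD-containing exposures, 553 (without CTD replicate 1) to 1354 among exposures, and 71 to 135 for mixtures against singles. The last count moved most without THI replicate 1 (71), IMZ + CTD replicate 2 (71), THI + IMZ replicate 3 (73) or THI + CTD replicate 1 (76). App, with a gap of 0.01, overlapped without Control 3, 4, 5, 6 or 8, THI replicate 2 or 3, or IMZ replicate 3. It also overlapped without THI + IMZ replicate 2 or 3, or IMZ + CTD replicate 2 or 4. The libraries nearest each other for App, IMZ + CTD replicate 1 and Control 7, stayed in all of these fits. Each fit scaled the remaining libraries anew, so these losses do not mark the libraries left out as those that kept App apart.

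Correlations of deviations between libraries of the same replicate number ran from -0.28 to 0.40, with means of -0.009 to 0.056 by number. Libraries of different numbers were not compared in this way, so these values cannot decide whether the numbers pair the libraries. With the replicate block 240 genes passed (141 up, 99 down, 217 shared) and 7 past every exposure, in a fit where the numbers 5 to 8 exist only in Control. The genes that it lost from the test of every exposure were Gstm1, Cyp2b1, Abcc3 and Cyp3a23/3a1. The newer quasi-likelihood method lost Cyp3a23/3a1 from that test. The cause of the changes was otherwise not tested. Of the 1056 genes that passed after thinning to the smallest library, 946 were among the 1143, and Isyna1 lost its separation. With 3 to 8 rats a group small changes could be missed.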
